A study of Rattus norvegicus with 12 samples.

Results

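RBPMS knockdown in differentiated PAC1 cells was described here across all genes of the deposited count table, by setting the 3 RBPMS KD1 libraries against the 3 D1 libraries, 6 of the 12 libraries in the series. PAC1 is a cultured smooth muscle cell line from rat pulmonary artery. D1 libraries came from PAC1 cells kept in the more differentiated state, by less frequent passage than proliferative PAC1 cells, and given a control siRNA, and RBPMS KD1 libraries came from the same differentiated cells given an siRNA against RBPMS. Both groups therefore carried siRNA and the transfection lipid, at 90 pmol of siRNA in each of 2 rounds. The 2 siRNAs differed in length as well as sequence, with sense strands of 25 bases for RBPMS and 21 for the control. The labels place the second round after 24 h and harvest 48 h later, whereas the study's methods give longer times. The 3 MBNL KD libraries, from differentiated cells given siRNAs against MBNL1 and MBNL2, were used for a direct comparison, and the 3 libraries of proliferative cells were not. Each target was knocked down in 1 cell line, and RBPMS with 1 siRNA sequence. Effects of that sequence on other mRNAs, or of its length, cannot be told apart from an effect of lower RBPMS. RNA was poly(A)-selected, and 15904 of 33294 listed genes had enough counts for testing. Totals of the 6 D1 and RBPMS KD1 libraries lay between 90196960 and 90771289 counts, and those of MBNL KD between 80842635 and 89996117, after the authors had reduced all libraries to the same read number before counting.

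RBPMS is an RNA-binding protein with a single RNA recognition motif that binds CAC-containing RNA as a dimer. In smooth muscle it is known as a regulator of alternative splicing that favours the exon choices of the contractile state, and smooth muscle cells in culture can shift between that state and one of growth, migration and matrix production. Splicing was not measured in the values used here, which are total counts per gene. The sense strands of the siRNAs, which define what separated the groups, were listed by the study 5′ to 3′ as follows.
RBPMS siRNA: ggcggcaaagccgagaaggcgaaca
Control siRNA C2: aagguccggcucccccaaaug

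Rbpms mRNA was lower in every RBPMS KD1 library, at 24.8%, 24.7% and 25.6% of the D1 mean (adjusted p = 1.13e-25, edgeR quasi-likelihood test with Benjamini-Hochberg adjustment over all 15904 genes, as for every adjusted p in this text unless stated). Rbpms2, the paralog of Rbpms, stood at 3237, 3364 and 3301 counts in D1 and 2056, 2336 and 2155 in RBPMS KD1, so it fell too (log2 fold change -0.60, SE 0.044, adjusted p = 1.63e-12). Counts of single genes are given throughout after scaling all libraries to a common size (scaled counts), in replicate order 1, 2 and 3, and they compare libraries, not genes. The defining smooth muscle gene Acta2, alpha smooth muscle actin, remained among the abundant mRNAs after knockdown, at 437849, 466976 and 435739 in D1 and 202811, 211832 and 206702 in RBPMS KD1. It fell by more than 2-fold (log2 fold change -1.11, SE 0.027, adjusted p = 5.44e-23), whereas quantile normalization placed the fall at -0.94 on the log2 scale.

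Calls required both an adjusted p under 0.05 and at least a 2-fold difference (a log2 fold change beyond 1 in size). By that rule 487 genes were higher in RBPMS KD1 (3.06% of those tested) and 258 were lower (1.62%), of which 719 had groups that did not overlap and 26 had overlapping groups. With quantile normalization the split was 380 higher and 320 lower. At an adjusted p under 0.05 alone, 4694 genes were higher (29.5%) and 4699 were lower (29.5%). These shares are the background for the list members below that rose or fell. For counts of called members the background is 3.06% higher and 1.62% lower. The biological coefficient of variation common to all genes was 3.04%, so that small differences passed the test. The median log2 fold change over all genes was 0.0043. Interferon-stimulated, lysosomal and cytokine genes were among the lists with far more members that rose than fell, whereas mitosis, DNA replication and actin-binding genes leaned the other way.

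**Figure D1:**
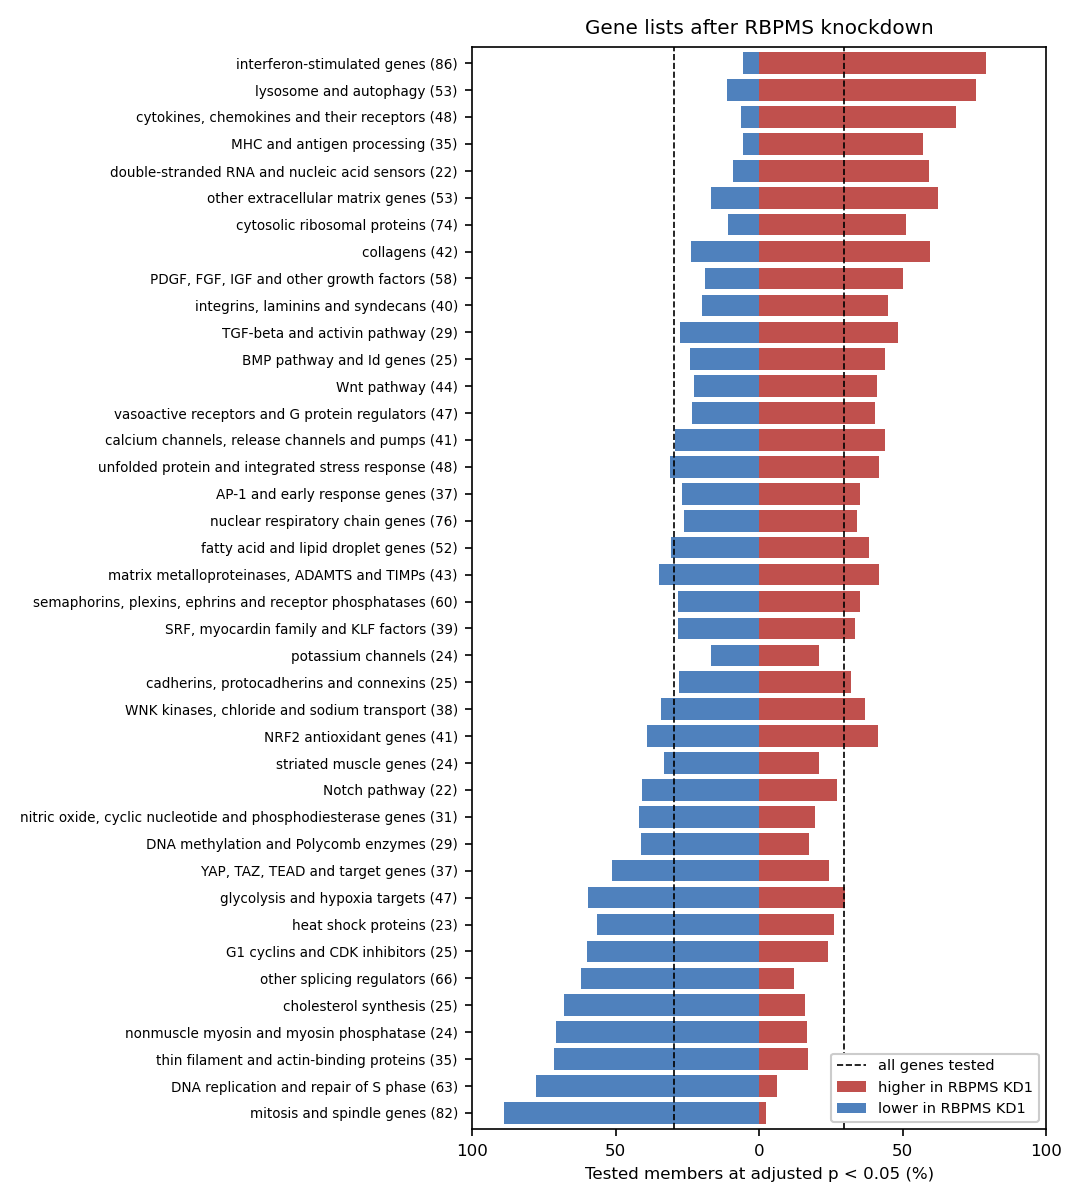
Share of each gene list's tested members at an adjusted p under 0.05, lower in RBPMS KD1 to the left (blue) and higher to the right (red), for 40 of the 41 lists with at least 20 tested members (number in brackets), 1 list being not reported here. Dashed lines mark the shares over all genes tested, 29.5% on each side; interferon-stimulated genes stand at the top with 79.1% higher and mitosis genes at the bottom with 89.0% lower.

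The largest rises among genes with at least 100 scaled counts were led by Ptprv, which encodes a receptor-type tyrosine phosphatase. Ptprv stood at 316, 315 and 249.6 in D1 and 1714, 1751 and 1591 in RBPMS KD1 (log2 fold change 2.52, SE 0.076, adjusted p = 3.88e-21). Gbp4, an interferon-induced guanylate-binding protein, rose 5.2-fold and is described with its family below. Mmp2, the secreted protease gelatinase A, went from 1277, 1279 and 1334 to 6228, 6571 and 5821 (log2 fold change 2.26, SE 0.044, adjusted p = 2.34e-25). The groups did not overlap for any of these genes, and the lowest RBPMS KD1 value was more than 4 times the highest D1 value in each. Scara5, a ferritin receptor, rose from 277, 299 and 280.2 to 1195, 1215 and 1096 (log2 fold change 2.03, SE 0.074, adjusted p = 2.37e-19). Slc2a9, a urate transporter, rose by 2.10 on the log2 scale, and Selenop, the selenium carrier of plasma, by 2.03. Cpz, a secreted carboxypeptidase, rose by 2.15, and Mcf2, a guanine nucleotide exchange factor, by 1.91. Ankdd1a rose by 2.24, and the uncharacterised loci LOC120102879, LOC102551884 and LOC120099930 rose by 2.24, 2.21 and 2.10.

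The largest falls among genes with at least 100 scaled counts were led by Acta1, the skeletal muscle alpha actin. Acta1 stood at 459, 622.5 and 493 in D1 and 107, 80.9 and 77.1 in RBPMS KD1 (log2 fold change -2.57, SE 0.13, adjusted p = 1.03e-15), and the 3 knockdown values were all below the lowest D1 value. Actin genes are close in sequence, so a share of Acta1 reads may belong to more abundant actins that also fell. Zdhhc2, an enzyme that attaches palmitate to proteins, fell from 1466, 1495.5 and 1417 to 368, 354 and 365 (log2 fold change -2.01, SE 0.065, adjusted p = 1.89e-20). Asb13, a substrate adaptor of a ubiquitin ligase, fell from 1205, 1284 and 1308 to 335, 319 and 346 (log2 fold change -1.92, SE 0.07, adjusted p = 2.20e-19). Wnk2, a kinase that controls chloride cotransporters, stood at 112, 124 and 104 in D1 and 28.2, 39.5 and 9.0 in RBPMS KD1, with replicate 3 far under the other two (log2 fold change -2.14, SE 0.29, adjusted p = 2.95e-07). Mmd fell from 3176, 3299 and 3404 to 891, 897 and 971 (log2 fold change -1.84, SE 0.048, adjusted p = 1.75e-22), and Aif1l, an actin-bundling protein, from 1212, 1245 and 1191 to 364, 346 and 319 (log2 fold change -1.82, SE 0.07, adjusted p = 9.14e-19). Glra1, a glycine receptor subunit, changed by -1.89 on the log2 scale, Nxt2, of the mRNA export machinery, by -1.79, and Emb, a partner of monocarboxylate transporters, by -1.77. Tnnt2, cardiac troponin T, changed by -1.75, and the locus LOC120098113 by -1.74.

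**Figure D2:**
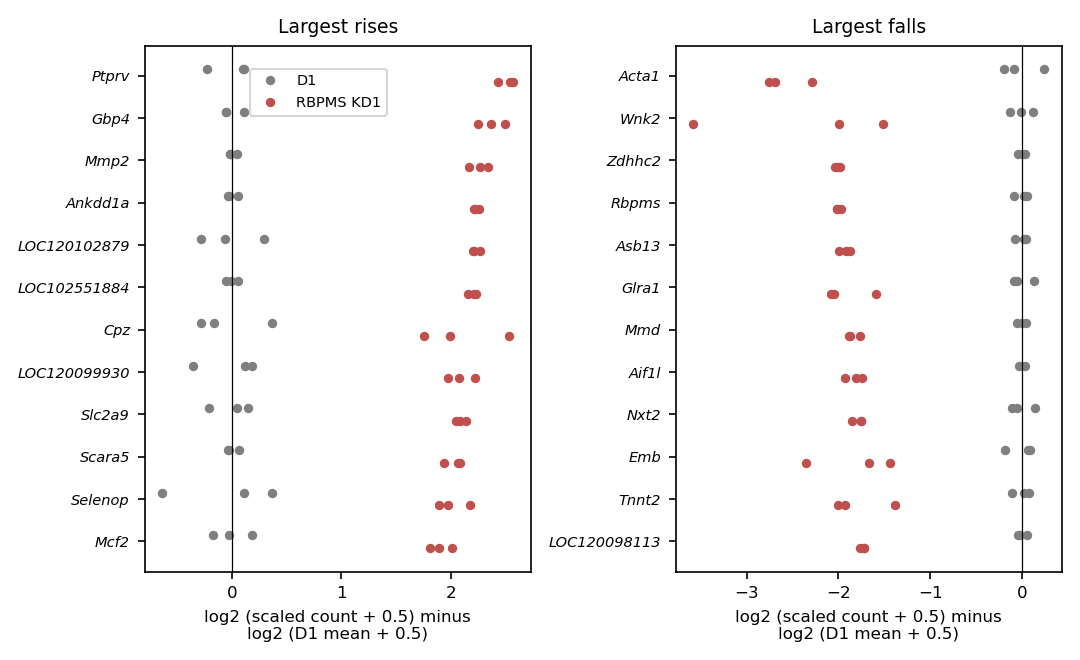
The 12 largest rises and 12 largest falls among called genes whose groups did not overlap and whose higher group reached 100 scaled counts, each point 1 library (D1 grey, RBPMS KD1 red), on the x axis as log2 of the scaled count plus 0.5 relative to the D1 mean. The groups are apart for every gene, and the widest scatter is that of Wnk2.

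The most abundant called genes had varied roles. Aspn, the small leucine-rich proteoglycan asporin, rose from 3615, 3569 and 3695 to 10934.5, 11461 and 11231.5 (log2 fold change 1.63, SE 0.03, adjusted p = 1.62e-25). Ncam1, a neural cell adhesion molecule, rose from 12538, 12607 and 12278 to 25395, 26781 and 24498.5 (log2 fold change 1.04, SE 0.029, adjusted p = 7.46e-22). Lima1, a LIM-domain protein that crosslinks actin filaments, rose from 9183, 8876 and 9096 to 24028, 24744 and 24478.5 (log2 fold change 1.43, SE 0.026, adjusted p = 1.58e-25), against the direction of most actin-binding genes. Mmrn2, an extracellular matrix glycoprotein of vessels, rose by 1.09 on the log2 scale, Glb1l by 1.17, Sowahc by 1.09, and Alas1, the rate-limiting enzyme of haem synthesis, by 1.11. In the other direction Anxa1, the phospholipid-binding protein annexin A1, fell from 82581, 80579 and 83026 to 34241, 34307 and 33723 (log2 fold change -1.27, SE 0.024, adjusted p = 2.34e-25). Irag1, a substrate of cGMP-dependent kinase at the IP3 receptor, fell from 24966.5, 26674 and 24879 to 11910.5, 11774 and 11885 (log2 fold change -1.10, SE 0.028, adjusted p = 8.14e-23). Nomo1, of the endoplasmic reticulum membrane, changed by -1.14, and LOC290595 by -1.09.

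Long noncoding RNA genes were called higher more often than genes of all classes, though by little among genes under 100 scaled counts. Of the 15904 tested genes, 14334 matched a gene of the RefSeq table by symbol or synonym, and 1171 of these were annotated as lncRNA. Of the 1171, 111 were called higher (9.48%, against 3.06% of all genes) and 23 lower (1.96%). Among genes whose higher group stayed under 100 scaled counts, which held 814 of the 1171, 9.34% of lncRNA genes were called higher, compared with 8.60% of all genes and 10.92% of protein-coding genes. Among genes whose higher group reached 100 scaled counts 35 of 357 lncRNA genes were called higher (9.80%), compared with 192 of all 12475 genes at that level (1.54%). The count levels still differed there, with a median of 237.1 scaled counts for lncRNA genes and 2913 for all genes, and the part of count level in these shares was not tested. Protein-coding genes gave 328 higher and 188 lower of 12959. The median log2 fold change of lncRNA genes against D1 was 0.12 in RBPMS KD1 and 0.20 in MBNL KD. Over all genes it was 0.0043 and 1.1e-04. For lncRNA genes whose higher group reached 100 scaled counts it was 0.16 and 0.18, so the upward shift was not particular to RBPMS KD1. Whether a lncRNA count came from its own transcript or from an overlapping gene was not tested, since the strand setting of the counting is not given in the sources used here.

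Interferons signal through JAK kinases to transcription factors that bind interferon-stimulated response elements near the start sites of antiviral genes, and cells can also start this program from double-stranded RNA. Many promoters of the list carried the letters of that element. In the RefSeq promoter windows of the GRCr8 build (250 bases before to 50 bases after the start site), the letters GAAA, any 2 bases and GAAA again, on either strand, were found for 42 of the 73 listed genes that had a window (57.5%), compared with 3.77% of all 27457 promoters. The matches below are shown because these 4 genes were among those called higher, each written along the gene's strand, with capitals marking the element, which reads TTTC, any 2 bases and TTTC on that strand. Of 38 tested list members with a match, 32 rose at an adjusted p under 0.05. Of 28 tested members with a window but no match, 20 rose too. A match of letters is a description and not a measured binding site.
Gbp4, GRCr8 chr2:233978466-233978495, plus strand: agaagcagggTTTCGATTTCggttcccttt
Irf7, GRCr8 chr1:205800073-205800102, minus strand: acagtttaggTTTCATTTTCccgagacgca
Oasl2, GRCr8 chr12:47383317-47383346, minus strand: aaagctttggTTTCAGTTTCcaggcttgag
Gbp5, GRCr8 chr2:233910933-233910962, plus strand: acttgtgtagTTTCAATTTCagtttagagg

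Of 99 listed interferon-stimulated genes, 86 passed the filter on low counts and were tested. Of these, 68 rose and 5 fell at an adjusted p under 0.05, compared with 29.5% of all genes each way. By the stricter rule 15 were called higher (17.4%, against 3.06% of all genes), and the list's median log2 fold change was 0.51 against 0.0043 for all genes. Gbp4, a GTPase that acts on intracellular pathogens, stood at 128.5, 144 and 128 in D1 and 756, 693 and 637 in RBPMS KD1 (log2 fold change 2.38, SE 0.10, adjusted p = 7.52e-18). Its relatives Gbp5 and Gbp6 rose by 1.24 and 1.55 on the log2 scale, and since guanylate-binding protein genes lie in a family of close copies, reads may be split among them. Irf7, the factor that amplifies type I interferon production, rose from 1048.5, 843 and 1098 to 2527, 1962 and 2082 (log2 fold change 1.14, SE 0.079, adjusted p = 4.65e-13). Oasl2, of the oligoadenylate synthetase family, rose from 333.5, 322 and 344 to 916.5, 686 and 682 (log2 fold change 1.19, SE 0.097, adjusted p = 1.52e-11). Uba7, the activating enzyme for the ubiquitin-like ISG15, rose from 370.2, 416 and 378 to 1035.5, 906.5 and 855.5 (log2 fold change 1.27, SE 0.08, adjusted p = 6.39e-14). In each of these genes the groups were apart, and for Gbp4, Irf7, Oasl2 and Uba7 the highest value was that of RBPMS KD1 replicate 1. Dhx58, a helicase of the RNA-sensing pathway, rose by 1.25, and Isg15 itself by 0.68. The transducers Stat2 and Irf9 rose by 0.70 and 0.52. Among the 5 members that fell were Ifitm3 (-0.54), which restricts viral entry, and Mx1 (-0.52, with overlapping groups). The list was thus mostly but not uniformly higher.

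RBPMS KD1 replicate 1 held the highest value among the knockdown libraries for 60 of the 86 interferon-stimulated genes, with 9 for replicate 2 and 17 for replicate 3. The list's median log2 ratio to the D1 mean was 0.60 in replicate 1, 0.44 in replicate 2 and 0.48 in replicate 3. Without RBPMS KD1 replicate 1, 64 members rose at an adjusted p under 0.05. Ccl5, a chemokine at very low counts (means ± SD over 3 libraries of 15.4 ± 5.8 after knockdown and 6.1 ± 4.1 in D1), lost its call without that library (adjusted p = 0.205, edgeR), and also without D1 replicate 1 (adjusted p = 0.196) or D1 replicate 2 (adjusted p = 0.0849). Its adjusted p was also above 0.05 with quantile normalization, DESeq2, limma, no filter on low counts, all 12 libraries or a replicate block (0.0614 to 0.0802).

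**Figure D3:**
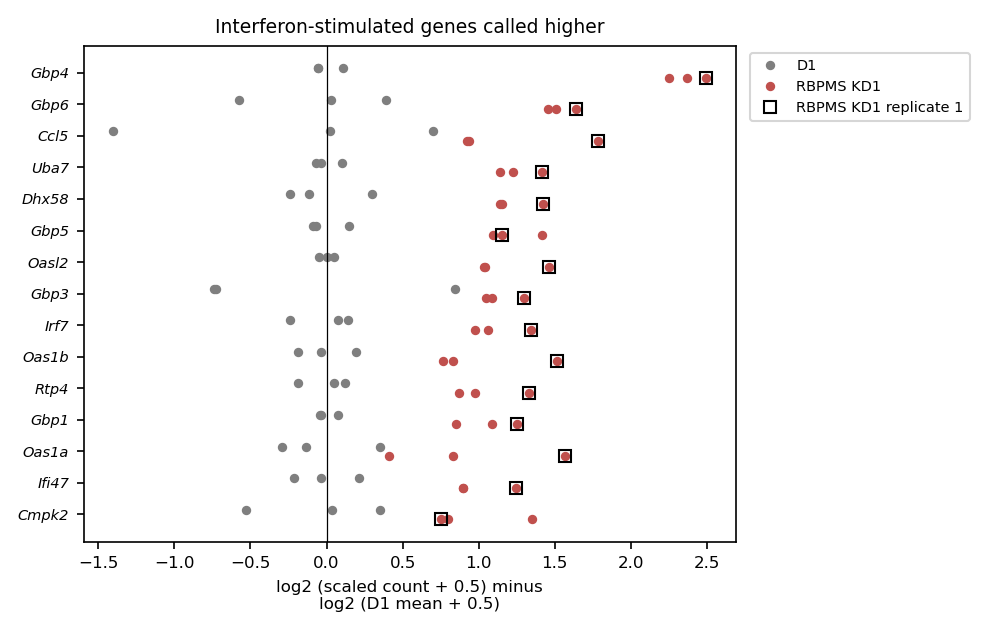
The 15 interferon-stimulated genes called higher, each point 1 library (D1 grey, RBPMS KD1 red) on the x axis as log2 of the scaled count plus 0.5 relative to the D1 mean. Squares mark RBPMS KD1 replicate 1, which lies farthest right for most of the genes, and all red points of a gene lie to the right of its grey points.

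Other immune lists also had more members that rose than fell. Of 35 genes of the major histocompatibility complex and antigen processing, 20 rose and 2 fell. Nlrc5, the transactivator of class I genes, stood at 96.9, 86.6 and 87.6 in D1 and 237, 200.3 and 190.3 in RBPMS KD1 (log2 fold change 1.21, SE 0.15, adjusted p = 7.28e-08), and the class I gene RT1-S3, one of many close copies, rose by 1.12. Its call was lost without RBPMS KD1 replicate 1, at a log2 fold change of 0.96. Tap1, a subunit of the peptide transporter, rose from 3009.9, 3153 and 3108 to 6001, 5527 and 5537 (log2 fold change 0.88, SE 0.037, adjusted p = 7.31e-18), and the class I light chain B2m rose by 0.44. Of 22 genes of nucleic acid sensing, 13 rose and 2 fell. Sting1, the adaptor downstream of the DNA sensor cGAS, rose from 431, 413 and 352.5 to 855, 898 and 846.5 (log2 fold change 1.12, SE 0.078, adjusted p = 4.86e-13), whereas the RNA sensors Ifih1 and Ddx58 changed by 0.19 and 0.16.

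Of 48 cytokines, chemokines and their receptors, 33 rose and 3 fell (median log2 fold change 0.44), and 7 were called higher (14.6%, against 3.06% of all genes). Cxcl13, a chemokine that attracts B cells, rose from 275, 338 and 263 to 918.5, 835 and 836.5 (log2 fold change 1.56, SE 0.087, adjusted p = 3.46e-15). Il1r1, the interleukin-1 receptor, rose from 782, 734 and 719 to 1443, 1658 and 1586 (log2 fold change 1.07, SE 0.061, adjusted p = 7.67e-15), as did its soluble antagonist Il1rn (1.14, and 0.95 without D1 replicate 3). Tnfrsf1b, the second TNF receptor, rose from 2720.2, 2582 and 2869 to 5793, 5890.5 and 5659.8 (log2 fold change 1.09, SE 0.038, adjusted p = 8.14e-20), while the first receptor, Tnfrsf1a, stood at -0.024 and did not pass the test (adjusted p = 0.421). Il1rl1, the receptor of interleukin-33, rose by 1.34, while Il33 stood at -0.099 (adjusted p = 0.676). Ccl2 rose by 0.53 and Il6 by 0.43, and Cxcl12, an abundant chemokine of stromal cells, fell from 262980.4, 268669 and 265833 to 219561, 225359 and 226183 (log2 fold change -0.25, SE 0.024, adjusted p = 4.97e-10). The prostaglandin enzymes went in opposite directions, with Ptgs1 at 1.33 and Ptgs2 at -0.47. Of 16 complement genes tested, 8 rose, and the other members ranged from -0.18 upwards without passing the test.

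Genes of mitosis often carry cell cycle homology regions in their promoters, at which repressor complexes bind in cells that do not divide. Mitotic genes fell by small amounts in nearly every case. These mRNA levels do not measure division, and a separate EdU assay of DNA synthesis in the study gave higher proliferation after RBPMS knockdown. Why the mRNA levels and that assay differed in direction was not tested. Of 82 mitosis and spindle genes tested, 73 fell and 2 rose, and the median log2 fold change was -0.30, with no change as large as the stricter rule asks for. The letters TTTGAA of the cell cycle homology region were found on either strand in 48 of the 72 promoters of this list that had a window (66.7%), compared with 18.1% of all promoters. DNA replication genes, for comparison, held them in 6 of 52 promoters (11.5%). The windows of 3 members are given because they carry the falls described next, written along the gene's strand with the letters in capitals.
Cenpf, GRCr8 chr13:103760867-103760896, minus strand: ggccgcgggcagTTTGAAtcgctcgtgctg
Prc1, GRCr8 chr1:143659451-143659480, plus strand: cctccggctcggTTTGAAttccgcggggtc
Cdk1, GRCr8 chr20:19265209-19265238, plus strand: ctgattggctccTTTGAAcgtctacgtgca

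Cenpf, a kinetochore protein, fell from 11206, 11279.7 and 11531 to 5965, 5467 and 6099.6 (log2 fold change -0.95, SE 0.033, adjusted p = 8.14e-20). Prc1, which bundles the microtubules of the central spindle, fell from 20755, 20109 and 20390.5 to 11673, 11835 and 12234 (log2 fold change -0.78, SE 0.026, adjusted p = 6.11e-20). Cdk1, the kinase that drives mitosis, changed least of these, from 7239, 7289 and 7427 to 6244, 6388 and 6487 (log2 fold change -0.20, SE 0.029, adjusted p = 1.15e-06). Groups were apart in all of them. The proliferation marker Mki67 stood at -0.44 on the log2 scale, Ccnb1, the cyclin of mitotic entry, at -0.34, the kinase gene Aurkb at -0.33 and Top2a, a topoisomerase, at -0.25, and all passed the test. The 2 members that rose were Ckap2 (0.46) and Depdc1 (0.21). Of the 48 tested members with the promoter letters 43 fell, and of the 24 without them 21 fell. Of 63 genes of DNA replication and S-phase repair, 49 fell and 4 rose (median -0.25), with Brca1 at -0.82, Fanca at -0.75 and Pole, a replicative polymerase, at -0.70. Mcm2, a subunit of the replicative helicase, stood at 0.012 and did not pass the test (adjusted p = 0.743). Among 25 G1 cyclins and inhibitors, 15 fell and 6 rose. Ccnd2 fell from 191, 183.5 and 259 to 96.8, 71.8 and 82.1 (log2 fold change -1.33, SE 0.17, adjusted p = 7.96e-08), whereas its relative Ccnd1 rose from 31319.8, 28726 and 31352 to 40159, 37930.0 and 39392 (log2 fold change 0.36, SE 0.03, adjusted p = 1.95e-11). Cdkn1a, an inhibitor of cyclin-dependent kinases, rose by 0.39.

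**Figure D4:**
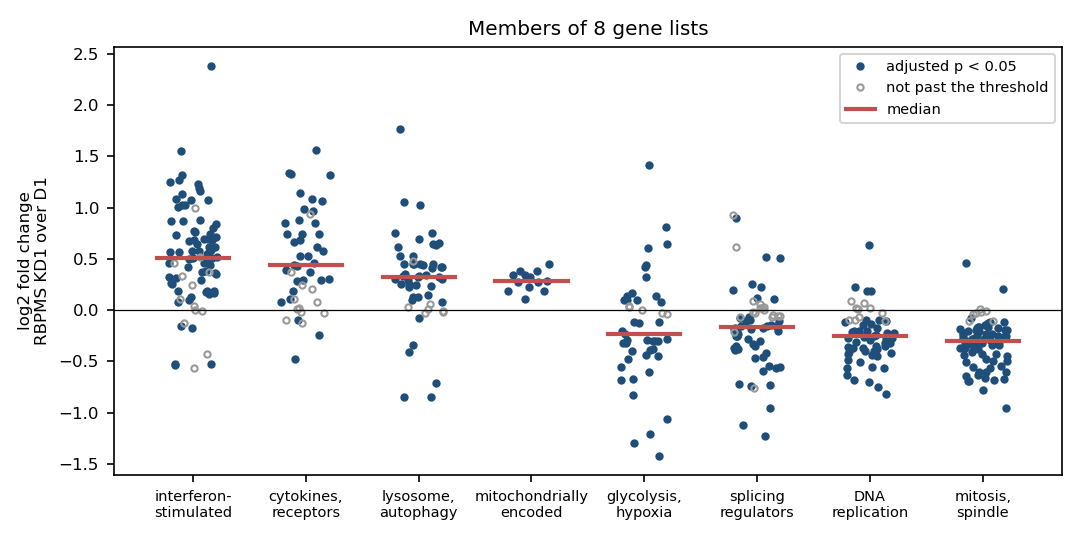
Log2 fold change of RBPMS KD1 over D1 for each tested member of 8 gene lists, with filled points at an adjusted p under 0.05 and open points above it, spread sideways for legibility. Red bars are list medians, from 0.51 for interferon-stimulated genes to -0.30 for mitosis genes.

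Most lysosomal genes tested rose. Of 53 genes of lysosome and autophagy tested, 40 rose and 6 fell (median log2 fold change 0.32), and 3 were called higher (5.66%, against 3.06% of all genes). Lamp1, the main membrane glycoprotein of lysosomes, stood at 61100.5, 59941 and 58815 in D1 and 92796, 100652 and 98217 in RBPMS KD1 (log2 fold change 0.70, SE 0.027, adjusted p = 1.45e-18). Gpnmb, a glycoprotein of lysosomes and melanosomes, rose from 5336, 4920.4 and 5627 to 10696, 10807 and 10722 (log2 fold change 1.02, SE 0.035, adjusted p = 5.85e-20), with a log2 fold change of 0.97 without D1 replicate 2. The proteases Ctso and Ctss rose by 1.05 and 1.77, Ctsb by 0.41 and Ctsd by 0.32. Grn, the progranulin gene, rose by 0.76, and Tfeb, a transcription factor for lysosomal genes, by 0.30. Among the members that fell were Atp6ap1, an accessory protein of the proton pump (-0.85), the autophagy kinase Ulk1 (-0.84) and the lipase Lipa (-0.72).

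All 13 mitochondrially encoded genes rose (log2 fold changes 0.11 to 0.45, median 0.29). ND2, a subunit of complex I, stood at 172974, 181849.6 and 178393 in D1 and 221338, 260666 and 245809.9 in RBPMS KD1 (log2 fold change 0.45, SE 0.036, adjusted p = 9.99e-12). All 13 were highest in RBPMS KD1 replicate 2, where the list's median log2 ratio to the D1 mean was 0.38, compared with 0.18 in replicate 1 and 0.30 in replicate 3. Without replicate 2, 12 still passed the test. Mitochondrial transcripts took 3.58% to 3.80% of the counts in D1 and 4.17% to 4.63% in RBPMS KD1, a share that also moves with RNA quality, whose part in the result was not tested. Of 76 nuclear genes of the respiratory chain, 26 rose and 20 fell (median 0.051). Cytosolic ribosomal protein genes rose in 38 of 74 cases and fell in 8, at a median of 0.095.

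Matrix genes shifted in both directions. Of 42 collagens and collagen-modifying enzymes tested, 25 rose and 10 fell (median log2 fold change 0.22). P4ha2, a prolyl 4-hydroxylase, rose from 11415, 10871.5 and 11195 to 25660.1, 26739 and 25244 (log2 fold change 1.22, SE 0.028, adjusted p = 8.46e-24). Plod2, the lysyl hydroxylase that acts on collagen telopeptides, fell from 251816, 261301 and 258360.3 to 118181, 117822 and 122569.8 (log2 fold change -1.10, SE 0.025, adjusted p = 8.46e-24). Quantile normalization placed that fall at -0.91, under the fold threshold. Its relatives Plod1 and Plod3 rose by 0.25 and 0.27, so the family did not move as one. The fibrillar chains Col1a1 and Col1a2 rose by 0.51 and 0.36, and Col3a1 by 0.13. Of 53 other matrix genes, 33 rose and 9 fell (median 0.25). Thbs2, the matricellular protein thrombospondin-2, rose from 2274.5, 2291 and 2273 to 5381, 5666 and 5402 (log2 fold change 1.27, SE 0.036, adjusted p = 9.72e-22). Postn, periostin, rose from 1125, 1092.5 and 1196 to 2605, 2672 and 2762 (log2 fold change 1.24, SE 0.048, adjusted p = 1.12e-18), and Fbln7, a fibulin, by 1.28. Eln, the elastin of arterial walls, fell from 928826, 968109.7 and 920659 to 799881, 764567 and 697961 (log2 fold change -0.32, SE 0.033, adjusted p = 3.14e-09), whereas Fn1, fibronectin, rose by 0.23.

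Among 43 matrix metalloproteinases, ADAM and ADAMTS proteases and TIMP inhibitors, 18 rose and 15 fell, close to an even split. Adam12, a membrane-bound metalloprotease, fell from 40176, 38388 and 38836 to 13715, 13281 and 14438 (log2 fold change -1.50, SE 0.029, adjusted p = 2.34e-25), in contrast to the rise of Mmp2. Mmp14, the membrane protease that activates the Mmp2 protein, fell slightly (log2 fold change -0.12, SE 0.024, adjusted p = 1.36e-04), and the inhibitor Timp1 rose by 0.29. Adam8, Mmp9 and Timp4 were called higher at lower counts, by 1.33, 1.52 and 1.22. Of 40 integrins, laminins and syndecans, 18 rose and 8 fell. Lama3, a laminin chain of epithelial basement membranes, rose from 402, 348 and 371 to 1149, 1141 and 1151 (log2 fold change 1.62, SE 0.07, adjusted p = 1.22e-17). Itgb3, the beta subunit of the vitronectin receptor, rose from 382.5, 392 and 397 to 935, 839.8 and 801 (log2 fold change 1.14, SE 0.076, adjusted p = 2.32e-13).

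Beyond the contractile marker set, genes of the thin filament and actin-binding proteins fell in 25 of 35 cases and rose in 6 (median log2 fold change -0.24). Nexn, nexilin, which binds actin filaments, fell from 12206, 12870.0 and 12750.4 to 4632, 4305 and 4855 (log2 fold change -1.45, SE 0.035, adjusted p = 2.38e-23). Lmod1, leiomodin, which starts new actin filaments in smooth muscle, fell from 25365, 26701 and 25246 to 11277, 11103 and 10732 (log2 fold change -1.22, SE 0.028, adjusted p = 9.98e-24). The crosslinkers Actn1 and Flna fell too (log2 fold changes -0.62 and -0.57), as did Tpm1, a tropomyosin (-0.85). Nonmuscle myosin and myosin phosphatase genes fell in 17 of 24 cases and rose in 4, with the heavy chain Myh10 at -0.43. One of the 4 was Mylk2, the skeletal muscle form of myosin light chain kinase, at 14.3, 22.7 and 9.2 in D1 and 82.7, 60.7 and 62.1 in RBPMS KD1 (log2 fold change 2.15, SE 0.33, adjusted p = 2.14e-06). Of 53 striated muscle genes 24 had enough counts, of which 8 fell, 5 rose and 11 did not pass the test. Of the 8, 5 were called lower (background 1.62%), including Mybpc3, whose groups overlapped and whose call was lost without D1 replicate 2 (adjusted p = 0.11, edgeR), D1 replicate 3 (0.0643), RBPMS KD1 replicate 1 (0.0961) or RBPMS KD1 replicate 2 (0.114). They also included Ankrd1, a stretch-responsive repeat protein, falling from 32001, 33481 and 33434 to 15320.4, 15789 and 15772 (log2 fold change -1.08, SE 0.026, adjusted p = 3.58e-23) and Ckm, muscle creatine kinase, at a log2 fold change of -1.86 and low counts. Pln, phospholamban, which inhibits the calcium pump of the sarcoplasmic reticulum, rose from 42.8, 40.2 and 37.7 to 104, 112 and 134 (log2 fold change 1.54, SE 0.22, adjusted p = 4.85e-07), and the pump gene Atp2a2 fell from 74118, 75715 and 72261 to 48569, 49109 and 48975 (log2 fold change -0.60, SE 0.025, adjusted p = 4.08e-18). Among 39 SRF, myocardin and KLF factors no gene was called, with 13 higher and 11 lower at an adjusted p under 0.05 in the edgeR fit. Srf, Myocd and Mef2c were among the 11, at -0.53, -0.68 and -0.61.

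RNA-binding regulators of splicing fell more often than they rose. Of 66 such genes outside the RBPMS, MBNL, RBFOX, QK and CELF families, 41 fell and 8 rose (median log2 fold change -0.17). Ptbp3, a polypyrimidine tract-binding protein, fell from 15023, 15398 and 14756.5 to 6498, 6188 and 6508 (log2 fold change -1.23, SE 0.029, adjusted p = 1.44e-23), while Ptbp1 and Ptbp2 changed by -0.22 and -0.55. Hnrnpf, an hnRNP that binds G-rich RNA, fell from 35414, 34485 and 35280.4 to 18440.0, 17786 and 18125.5 (log2 fold change -0.95, SE 0.025, adjusted p = 2.13e-22). Elavl2, an RNA-binding protein best known in neurons, fell to between 71.8 and 102.8 scaled counts (log2 fold change -1.12, and -0.97 without RBPMS KD1 replicate 2). Rbfox2, a splicing regulator that binds GCAUG, fell from 20286, 20340.3 and 19746 to 10268, 10448.5 and 10392 (log2 fold change -0.95, SE 0.026, adjusted p = 3.18e-22). Mbnl1 and Mbnl2 rose by 0.11 and 0.17, Qk fell (-0.21), and Celf2 stood at 0.01 (adjusted p = 0.87). Among chromatin enzymes Jarid2, a partner of the Polycomb repressive complex, fell from 2899.7, 2872.5 and 2711 to 1110.1, 1109 and 1059 (log2 fold change -1.37, SE 0.047, adjusted p = 7.89e-20), whereas the catalytic subunit Ezh2 stood at -0.076 (adjusted p = 0.0529). Of 13 genes of RNA interference, 7 fell and 5 rose, with Dicer1, which cuts microRNA precursors, at -0.73 and its partner Tarbp2 at 0.60.

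Genes of glycolysis and hypoxia responses fell in 28 of 47 cases and rose in 14 (median log2 fold change -0.24). Pfkl, the liver-type phosphofructokinase, fell from 22644, 23296 and 22832 to 9992, 10021.5 and 9599.7 (log2 fold change -1.21, SE 0.027, adjusted p = 4.31e-24), while the platelet form Pfkp rose by 0.14 and the muscle form Pfkm stood at -0.026 (adjusted p = 0.416). Ldha, lactate dehydrogenase A, fell from 65934, 62986 and 66061 to 44390.5, 43899 and 43957 (log2 fold change -0.56, SE 0.025, adjusted p = 2.57e-17). The glucose transporter Slc2a1 fell (log2 fold change -0.38), and Vegfa, a hypoxia target, stood at -0.042 (adjusted p = 0.302). Adm, the vasodilator peptide adrenomedullin, went the other way, from 60.2, 92.8 and 91.7 to 232, 249.9 and 172 (log2 fold change 1.42, SE 0.18, adjusted p = 5.70e-08). Of 25 genes of cholesterol synthesis, 17 fell and 4 rose. Idi1, isopentenyl diphosphate isomerase, fell from 6708, 6839.5 and 6948 to 3122, 3167 and 3329 (log2 fold change -1.09, SE 0.034, adjusted p = 7.08e-21), and Fdft1, squalene synthase, fell as well. Elovl6, which elongates palmitate, fell from 5785, 6544 and 6126 to 2796, 2708.5 and 2926 (log2 fold change -1.13, SE 0.041, adjusted p = 1.99e-19).

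Receptors, channels and secreted signals held single large changes within families of mixed direction. Of 47 genes listed under vasoactive receptors and G protein regulators, 19 rose and 11 fell. Agtr1a, the main angiotensin II receptor of rat vessels, stood at 357, 363 and 359 in D1 and 127, 136 and 149 in RBPMS KD1 (log2 fold change -1.39, SE 0.11, adjusted p = 2.08e-11), and Ednra, the endothelin receptor of smooth muscle, at -0.83 fell too. Kcnmb1, the smooth muscle beta subunit of the large-conductance calcium-activated potassium channel, fell from 316, 269 and 328 to 125, 136 and 130.2 (log2 fold change -1.22, SE 0.13, adjusted p = 1.86e-09). Its pore gene Kcnma1 was at low counts and did not pass the test (-0.76, adjusted p = 0.195). Prkar2a, a regulatory subunit of protein kinase A, fell from 12956.5, 12723 and 12857 to 6167.5, 6203 and 6299 (log2 fold change -1.04, SE 0.027, adjusted p = 1.30e-22, and -0.99 with quantile normalization), and its relative Prkar1b rose by 1.57 at far lower counts in these libraries. Of 58 growth factor genes, 29 rose and 11 fell. Igfbp5, which binds insulin-like growth factors, fell from 679, 669 and 657 to 256, 190.2 and 182 (log2 fold change -1.67, SE 0.10, adjusted p = 2.58e-14), and Angptl4, an inhibitor of lipoprotein lipase, rose from 361, 356 and 343 to 846, 851 and 785 (log2 fold change 1.23, SE 0.075, adjusted p = 2.88e-14). Plxnb1, a semaphorin receptor, fell from 5777, 5997.5 and 5424 to 1980.2, 1946 and 1836 (log2 fold change -1.58, SE 0.041, adjusted p = 1.63e-22). Wif1 and Sfrp2, secreted inhibitors of Wnt signalling, rose by 1.97 and 1.09.

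TGF-beta, BMP and Notch genes gave no call but 1. Tgfb1 rose from 8971.5, 9194 and 8564 to 12001, 12529 and 12423 (log2 fold change 0.47, SE 0.029, adjusted p = 4.75e-14), and its co-receptor Tgfbr3 by 0.87 on the log2 scale. Fst, follistatin, which binds activin, rose from 1674, 1614 and 1653.5 to 3125, 3281 and 3191.5 (log2 fold change 0.96, SE 0.042, adjusted p = 1.37e-17). Gdf6, a BMP-family ligand, fell from 12888, 13597 and 13502 to 7098, 6861 and 6982 (log2 fold change -0.93, SE 0.029, adjusted p = 5.97e-21), whereas Id1, a target of BMP signalling, rose by 0.82. Jag1 and Notch3 fell (-0.50 and -0.11), and the 1 call was the fall of the Notch ligand Jag2, at no more than 22.4 scaled counts in any library.

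Markers of other cell types were checked because bulk RNA cannot tell fewer cells of a type from less RNA per cell. Of 12 macrophage and leukocyte markers, 3 were tested, and Itgam, Cd163, Tyrobp and Ms4a1 had 0 counts in all 6 libraries, while Ptprc, which encodes CD45, had at most 1 count. Their summed level was 55.3 to 59.8 CPM (counts scaled to library size) in D1 and 82.3 to 84.1 in RBPMS KD1, most of it from Cd14, which rose by 0.52. Of 12 endothelial markers, Cdh5, Kdr, Cldn5 and Emcn were at 0 in all 6 libraries, and Vwf and Tek were called higher at low counts, by 1.22 and 1.32. In all, 4 of the 5 tested endothelial markers rose. Their sum was 32.9 to 33.9 CPM in D1 and 46.5 to 48.8 in RBPMS KD1. Most of it came from Flt1, at 1987 to 2181 raw counts in D1 and 3028 to 3177 in RBPMS KD1. Egfl7 went from 727 to 815 raw counts in D1 to 905 to 997. Fibroblast markers, which smooth muscle cells share, rose in 5 of 7 tested cases and fell in 1, with Pdgfra at 0.91 and Dcn at 0.70. Their sum rose from 21660 to 22480 CPM in D1 to 29530 to 31120 in RBPMS KD1, mostly through type I collagen.

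The direct comparison with MBNL KD asked which of these values differed between the knockdowns of different splicing regulators, without using the D1 libraries. Of 16111 genes tested, 972 were called higher in RBPMS KD1 (6.03%) and 948 lower (5.88%), and at an adjusted p under 0.05 alone 5553 were higher (34.5%) and 5649 lower (35.1%). Of 85 interferon-stimulated genes tested in both comparisons, 58 were higher in RBPMS KD1 than in MBNL KD and 10 were lower. Uba7, for example, stood at 244 ± 50.1 (SD, n = 3) in MBNL KD (log2 difference 1.94, SE 0.10, adjusted p = 1.51e-16). Genes of antigen processing were higher in 27 of 35 cases and lower in 5, and complement genes were higher in 11 of 16. C1s, a protease of the classical complement pathway, stood at 3985, 4027 and 3994 in D1, 10732, 10601 and 10159.6 in RBPMS KD1 and 1817 ± 103 (SD, n = 3) in MBNL KD (log2 difference 2.54, SE 0.037, adjusted p = 2.20e-30). Mitosis genes were higher in RBPMS KD1 than in MBNL KD in 61 of 82 cases and lower in 8.

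Muscle genes differed in the other direction. All 8 contractile markers were lower in RBPMS KD1 than in MBNL KD, and so were 15 of 24 striated muscle genes, with 3 higher. Tnnt2 stood at 769 ± 56.3 (SD, n = 3) in MBNL KD, above both D1 and RBPMS KD1 (log2 difference -3.35, SE 0.12, adjusted p = 1.17e-20). Mmd stood at 8135 ± 170.2 in MBNL KD (log2 difference -3.14, SE 0.039, adjusted p = 1.29e-31), and Nexn at 15689 ± 583.5 (log2 difference -1.77, SE 0.034, adjusted p = 1.66e-27), each above its D1 level, while RBPMS KD1 was below D1. Hnrnpf and Ptbp3 were lower in RBPMS KD1 (log2 differences -1.11 and -1.21), whereas no difference between the knockdowns was detected for Rbfox2 (log2 difference 0.018, SE 0.025, adjusted p = 0.539). Lima1, Plxnb1 and Aif1l moved in the same direction in both against D1, and their direct differences were 0.14, -0.13 and -0.41. Of the 12 largest rises, LOC120102879, Slc2a9 and Mcf2 also rose against D1 in MBNL KD, by 2.1, 2.0 and 1.8. Their direct differences of 0.13, 0.13 and 0.14 did not pass the test (adjusted p = 0.219, 0.216 and 0.158). Ankdd1a rose by 1.73 in MBNL KD, with a direct difference of 0.52. The other largest rises were higher in RBPMS KD1 than in MBNL KD as well. Nuclear genes of the respiratory chain were lower in RBPMS KD1 in 53 of 76 cases and higher in 11, and mitochondrially encoded genes were higher in 12 of 13.

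**Figure D5:**
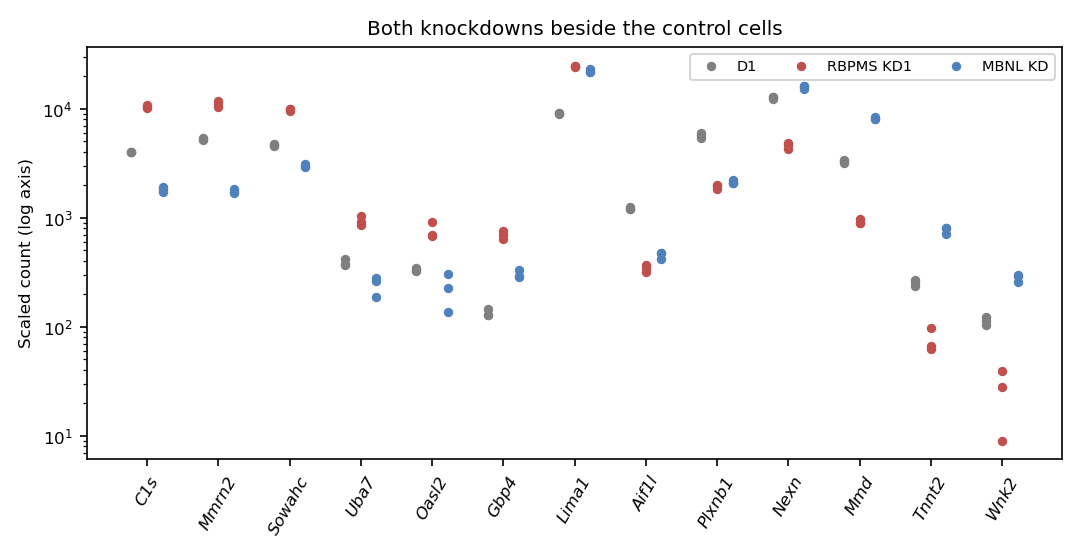
Scaled counts (log axis) of 13 genes, chosen after their values were seen, in the 3 libraries each of D1 (grey), RBPMS KD1 (red) and MBNL KD (blue). C1s, Mmrn2, Sowahc, Uba7, Oasl2 and Gbp4 are highest in RBPMS KD1, Lima1, Aif1l and Plxnb1 lie near each other in both knockdowns, and Mmd, Tnnt2, Nexn and Wnk2 lie below D1 in RBPMS KD1 and above it in MBNL KD.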

How the data were processed

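Poly(A) RNA of PAC1 cells was sequenced from 3 libraries per group, described in the study as independent biological replicates. P-values measure the spread between these samples. The authors deposited raw counts per gene, made from reads subsampled to an equal number per library, aligned with STAR 2.7.11b to mRatBN7.2 (submitters' processing notes) and counted with featureCounts on RefSeq genes. They also deposited normalised values (signal), made by noise filtering and quantile normalization. The strand setting and whether read pairs were counted once are not given in the sources used here. Low counts were even 2.15 to 2.24 times as often as odd, and counts were also tested after halving.

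RBPMS KD1 and D1 counts were fitted alone with edgeR 4.0.16 in R 4.3.3 (filterByExpr, TMM, quasi-likelihood test, Benjamini-Hochberg adjustment over 15904 genes). RBPMS KD1 and MBNL KD were compared in a fit of their own. Total counts were nearly equal among D1 and RBPMS KD1 libraries and lowest in MBNL KD replicate 3 (80842635). Counting error bore mainly on low genes. Scaled counts are counts at the mean effective library size.

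The gene lists, their members and the tests were chosen with earlier results of these data known. Genes were named as the 12 largest rises and falls with at least 100 scaled counts and no overlap, the 10 most abundant called genes per direction, and up to 8 called genes per list, or 3 tested genes where a list held no call. Other list members were named for their role or direction after their values were seen. Alternatives were DESeq2 1.42.0, its size factors, quantile normalization, other filters, limma 3.58.1 on the deposited normalised values, a fit of 12 libraries, a replicate block, a test of differences beyond 2-fold and leaving out each replicate. Biotypes and promoter sequences came from RefSeq tables of GRCr8. Coordinates of mRatBN7.2 were not used here, and some genes and 1 gene list are not reported here.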

Additional observations from a re-analysis of the deposited data

How the results depend on the processing

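The 745 calls of RBPMS KD1 against D1 ranged from 739 to 783 when 1 library was left out (472 to 510 higher, 253 to 286 lower), of which 609 to 632 were among the 745, and were 746 with DESeq2 size factors, 700 with quantile normalization (629 among the 745), 678 with DESeq2, 586 with counts halved and 894 in the fit of all 12 libraries. Without a filter on low counts there were 810, and with at least 10 counts in every library 512. With limma on the authors' normalised values 209 genes were called (105 higher and 104 lower, 20 of them lncRNA genes called higher). With a test against a fold change of 2, which asks more by construction, 167 were called (85 higher and 82 lower, with 18 lncRNA genes higher). With at least 10 counts in every library, where 14790 genes were tested, 65 lncRNA genes were called higher in place of 111. The cause of the lower limma counts was not tested. For 12 gene lists, among them the interferon, cytokine, lysosome, mitosis and replication lists, the count of members in the list's leading direction stayed within 1.5 times of the reported one under each of these settings other than the test against a fold change of 2, for which it was not computed. Among 181 named genes no direction reversed in the settings that fitted them (164 with at least 10 counts in every library, 172 with counts halved), and of the 131 that were called, calls were lost for 54 with limma, 65 with the test against a fold change of 2, 13 with quantile normalization and 6 to 13 when 1 library was left out.

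Deviations from the group means of libraries with the same replicate number correlated at 0.038, 0.074 and -0.021 over 12230 genes, so the numbers were not taken to pair the libraries. With a replicate block 730 genes were called (478 higher and 252 lower), 717 of them also called without it. The direct comparison with MBNL KD gave 1915 calls with a replicate block against 1920 without. Genes of few counts made up many of the calls: 417 of the 745 called genes had a mean under 100 scaled counts in the higher group. At that level 3429 genes were tested, compared with 328 called of 12475 tested at 100 or more. The part of depth in these shares was not tested.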

Other observations

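Several further gene groups held at most 1 called gene each, where 3.06% of all genes were called higher and 1.62% lower. At an adjusted p under 0.05 alone the background was 29.5% in each direction. Of 48 genes of the unfolded protein and integrated stress response, 20 rose and 15 fell (median log2 fold change 0.055), and of 41 NRF2 antioxidant genes, 17 rose and 16 fell. Hmox1, haem oxygenase, stood at 0.38 on the log2 scale (adjusted p = 1.98e-07, edgeR). Circadian clock genes rose in 4 of 16 cases and fell in 5. Of 37 AP-1 and early response genes, 13 rose and 10 fell. Heat shock genes fell in 13 of 23 cases and rose in 6, with Hspa8, the constitutive chaperone, at -0.36. Targets and factors of the YAP, TAZ and TEAD pathway fell in 19 of 37 cases and rose in 9. Ccn1 and Ccn2, secreted proteins that are common readouts of that pathway, stood at -0.16 and 0.25. Genes of intermediate filaments and caveolae fell in 10 of 18 cases and rose in 4, with Vim, vimentin, at 0.11 and Cav1, caveolin-1, at -0.17.

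The families of Zdhhc2 and Asb13 moved in both directions. Of 19 DHHC palmitoyltransferases, the family of Zdhhc2, 10 rose and 4 fell (median 0.16). Of 11 ASB ubiquitin ligase adaptors, the family of Asb13, 4 rose and 3 fell, and 2 of the 3 were called. Fatty acid and lipid droplet genes rose in 20 of 52 cases and fell in 16, and cadherins, protocadherins and connexins rose in 8 of 25 and fell in 7. Cdh16 and Cdh17, cadherins best known from epithelia, were called higher, by 1.24 and 1.80. Cox4i2, the isoform of a cytochrome c oxidase subunit used at low oxygen, was the 1 call among nuclear respiratory chain genes, at 23.5, 4.1 and 8.2 in D1 and 48.4, 23.3 and 31.1 in RBPMS KD1 (log2 fold change 1.51, SE 0.45, adjusted p = 0.00509). Its call was lost without RBPMS KD1 replicate 1 (adjusted p = 0.0566, edgeR). Tmc1, a channel component of hair cells, was the 1 called gene at the count floor in one group, with 0 to 2 counts in D1 and 12 to 17 in RBPMS KD1.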
